A study of Mus musculus with 51 samples.

Results

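The granular layer of the dentate gyrus (DG) was compared between mice with the tetracycline-controlled transactivator as their sole transgene (tTA) and double negative (DN) littermates that carry no transgene. The comparison used 11 of the 51 arrays of the series, those whose titles name TTA alone or double-negative mice and the dentate gyrus, 5 of them from tTA mice and 6 from DN mice. All 17 mice of the series were labelled female and 4.5 months of age. By the array titles, 1 array was made from the laser-captured cell layer of each of CA1, CA3 and the DG of each mouse. The 6 rTg4510 mice carry tTA together with TRE-htau (P301L), the mutant human tau transgene that tTA drives, and their DG arrays entered the fits as the third genotype. The mice came from crosses of a CaMKIIα-tTA line with a TRE-htau line kept on another strain, so tTA mice differ from DN littermates by the transgene, by the chromosome segment that surrounds its insertion and by whatever else segregates in the cross. The comparison addresses how the granular layer differs in mice that express tTA from a promoter of excitatory forebrain neurons, as rTg4510 mice also do. It cannot tell tTA itself from the other differences between these littermates.

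tTA is a fusion of a bacterial repressor with a viral activation domain, and without doxycycline it binds the tetracycline operator and switches on whatever gene lies next to it. The CaMKIIα promoter is active after birth in principal neurons of the forebrain, among them the granule cells of the DG. Granule cells are small glutamatergic neurons that receive input from the entorhinal cortex, send mossy fibres to CA3, and store enkephalin, chromogranins and growth factors whose expression follows neuronal activity.

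In 3 DG arrays signals went against the label, and the results below are given with and without them. Prnp, which encodes the prion protein and was high in most rTg4510 arrays, was between 7.82 and 8.22 on the log2 scale in the 5 tTA arrays (probe set 1416130_at). Among DN arrays Prnp was 8.02, 7.46, 7.76 and 7.70 in mice 1, 2, 3 and 6, but 9.98 in mouse 4 and 9.93 in mouse 5, and these 2 lie among the rTg4510 arrays, 5 of which were between 9.73 and 10.26. The other rTg4510 array, of mouse 3, had 7.34. Xist, the RNA of the inactive X chromosome, was 2.50 in that array and 9.09 to 10.26 in the other DG arrays (1436936_s_at), while in DN mouse 5 it was 9.91 in the DG, 2.49 in CA1 and 4.06 in CA3. Whether arrays were exchanged was not tested, no array was given another label, and each comparison was made with all arrays, without the DG arrays of DN mice 4 and 5, and without these and rTg4510 mouse 3. Prox1, the transcription factor that defines granule cells, lay between 4.36 and 7.29 in the 17 DG arrays and between 1.04 and 3.54 in all CA1 and CA3 arrays, so the layer is as labelled in every DG array. The 3′ minus 5′ signal of Gapdh, a sign of RNA degradation, was 2.24 to 2.71 (median 2.45) in tTA arrays and 2.64 to 3.17 (median 2.71) in DN arrays (p = 0.0368 by an exact two-sided permutation of the arrays, and 0.147 after adjustment over 4 array measures). Its part in the differences below was not tested.

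Across 22626 probe sets, no difference between tTA and DN mice passed an adjusted p of 0.05 in limma when all 17 DG arrays were fitted (0%), and 1179 (5.21%) had an unadjusted p under 0.05. Of those, 611 (2.7%) were higher and 568 (2.51%) lower in tTA mice. Without DN mice 4 and 5 the count was again 0 (0%), with 1063 (4.7%) at an unadjusted p under 0.05. Without rTg4510 mouse 3 as well, 13 probe sets of 12 genes were called (0.0575%), 4 higher (0.0177%) and 9 lower (0.0398%) in tTA mice, and a fit of the 5 tTA and 4 DN arrays alone called 5 (0.0221%), of which 4 were among the 13. The difference of means is the same number in these 3 fits, and only the spread it is set against changes, since rTg4510 mouse 3 lies far from the other rTg4510 arrays at these probe sets. The higher genes were Car4, Prss23, Tbr1 and Hpcal1, and the lower ones Doc2b (2 probe sets), Cxcl12, Ptgs2, Rgs4, Btg1, Dsg2, Ncam2 and Gss, with Rbp4 added by the fit of 9 arrays. Leaving out any 1 of the 14 arrays left between 6 and 13 of the 13 calls, and Car4, Btg1, Dsg2, Cxcl12 and both probe sets of Doc2b were called in all 14 such fits.

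Promoters are shown for 4 of the lower genes called with 14 arrays, chosen because they hold the motif marked below. Those of Gss and Ncam2, which do not hold it, are not shown. The sequences are those of RefSeq on GRCm38.p6, 300 bases each across the start site, written 5′ to 3′ on the strand of the gene. Capitals mark the short form of the cAMP response element, TGACG, or its complement CGTCA.
Cxcl12 (chr6:117168285-117168584, + strand): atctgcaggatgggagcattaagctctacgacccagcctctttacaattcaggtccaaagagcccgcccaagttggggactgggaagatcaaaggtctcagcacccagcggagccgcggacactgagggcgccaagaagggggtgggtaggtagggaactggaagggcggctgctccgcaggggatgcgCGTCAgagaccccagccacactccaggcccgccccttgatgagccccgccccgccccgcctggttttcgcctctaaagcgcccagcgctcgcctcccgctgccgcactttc
Ptgs2 (chr1:150099781-150100080, + strand): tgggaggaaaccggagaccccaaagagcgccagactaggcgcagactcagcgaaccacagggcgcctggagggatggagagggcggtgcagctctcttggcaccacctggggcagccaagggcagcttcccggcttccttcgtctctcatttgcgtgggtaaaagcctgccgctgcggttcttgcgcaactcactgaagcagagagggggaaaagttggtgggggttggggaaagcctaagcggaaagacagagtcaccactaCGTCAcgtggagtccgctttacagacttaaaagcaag
Rgs4 (chr1:169747593-169747892, - strand): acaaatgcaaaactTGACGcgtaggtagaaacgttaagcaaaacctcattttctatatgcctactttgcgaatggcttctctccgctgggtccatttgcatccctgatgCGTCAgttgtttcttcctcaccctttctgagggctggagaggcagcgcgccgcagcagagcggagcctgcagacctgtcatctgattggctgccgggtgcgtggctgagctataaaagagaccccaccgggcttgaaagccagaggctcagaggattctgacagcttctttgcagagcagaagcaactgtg
Btg1 (chr10:96616751-96617050, + strand): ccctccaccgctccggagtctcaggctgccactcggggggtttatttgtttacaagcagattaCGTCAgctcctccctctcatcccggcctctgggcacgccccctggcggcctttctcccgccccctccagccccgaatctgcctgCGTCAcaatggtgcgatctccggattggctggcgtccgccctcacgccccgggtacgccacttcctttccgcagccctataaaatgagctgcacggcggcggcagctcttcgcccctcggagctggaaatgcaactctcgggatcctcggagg
Of 14 genes looked up, 11 had a promoter in the table. TGACG on either strand occurred in 5 of the 7 lower genes found (Btg1, Cxcl12, Ptgs2, Rgs4 and Rbp4, but not Gss or Ncam2) and in 1 of the 4 higher genes (Prss23, but not Car4, Hpcal1 or Tbr1), against 20.8% of 32851 promoters of the same length. Rgs4 and Btg1 each hold 2 copies. Prss23 has 7 promoters in the table and Rbp4 has 2, so they had more bases to match. The full element TGACGTCA was in none of the 11 genes and in 1.79% of all promoters, and the AP-1 motif TGANTCA was in Rbp4 and Prss23 and in 7.81% of all. These matches describe the letters of the windows and nothing else.

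Among secreted proteins, Cxcl12, a chemokine that guides granule cell precursors in the DG through its receptor Cxcr4, had the largest difference of the genes named here. Its signal (1448823_at) was 2.13, 2.31, 2.34, 2.93 and 2.32 in tTA mice, against 6.50, 6.73, 6.75 and 6.62 in DN mice 1, 2, 3 and 6. DN mouse 4 had 3.89, above the tTA range, and DN mouse 5 had 1.72, below it. The 4 DN arrays thus form a tight group far above every tTA array, and the other 2 lie nearer to the tTA arrays than to that group. The difference without mice 4 and 5 was −4.25 ± 0.29 (standard error, limma adjusted p = 1.75e-05 in the 14-array fit, 0.417 in the 15-array fit), and over all DN arrays it was −2.96 ± 0.97 (adjusted p = 0.935). rTg4510 arrays other than mouse 3 averaged 2.73 ± 0.69 (SD, n = 5), and mouse 3 had 7.24. The other probe set of Cxcl12 (1417574_at) had overlapping groups and a difference of −0.86, so the 2 probe sets of the gene disagree in size.

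Penk, which encodes the enkephalin precursor stored by granule cells, had 2.93, 4.28, 3.62, 2.43 and 2.03 in tTA mice and 5.90, 6.55, 8.39 and 7.43 in DN mice 1, 2, 3 and 6. These 9 arrays did not overlap between the groups, as at 242 of all probe sets (1.07%) in this direction, and DN mice 4 and 5 (4.01 and 3.86) lay in the tTA range. The difference was −4.01 ± 0.82 in the 15-array fit (adjusted p = 0.434) and did not pass in the 14-array fit either (adjusted p = 0.0679). Rbp4, a carrier of retinol, had 1.273, 2.024, 1.504, 1.645 and 1.677 in tTA mice and 3.461, 3.514, 3.878, 1.463, 3.454 and 3.192 in DN mice 1 to 6, so that here only DN mouse 4 lay among the tTA arrays. Its difference of −1.89 passed in the fit of 9 arrays (adjusted p = 0.0134) and not in that of 14 (0.16).

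Doc2b, a calcium sensor for the release of synaptic vesicles, was low in every tTA mouse at both of its probe sets. At 1420666_at the signals were 1.693, 1.657, 2.005, 1.965 and 1.607 in tTA mice, against 6.232, 6.513, 5.508, 1.739, 2.288 and 5.015 in DN mice 1 to 6. Again DN mice 4 and 5 lay apart from the other 4 and within or just above the tTA range, and rTg4510 mouse 3 (5.77) lay apart from the other rTg4510 mice, whose highest value was 2.23. The difference without DN mice 4 and 5 was −4.03 ± 0.28 (adjusted p = 1.75e-05, 14 arrays), and −3.03 ± 0.36 at 1420667_at (adjusted p = 0.00604). Another release gene, Syn3 (synapsin 3), averaged 2.32 ± 0.28 (SD, n = 5) in tTA mice and 3.45 ± 0.34 (SD, n = 4) in DN mice, a difference of −1.13 that did not pass (adjusted p = 0.292 in the 14-array fit). Signals of 1.4 to 2.9 lie under the median of a DG array (2.97 to 3.12), where a gene may be below detection. The size of the differences of Doc2b, Syn3, Cxcl12, Ptgs2, Rbp4, Dsg2 and Gss is therefore uncertain.

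Ptgs2, Rgs4 and Btg1 act in signalling and growth control. Ptgs2, the inducible cyclooxygenase, had 1.99, 1.89, 1.97, 2.33 and 2.49 in tTA mice and 4.90, 3.69, 3.60, 2.04, 2.24 and 4.34 in DN mice 1 to 6, with mice 4 and 5 inside the tTA range. The difference was −1.9995 ± 0.28 without them (adjusted p = 0.0197, 14 arrays), and at its other probe set −1.56, with overlapping groups. Rgs4, which speeds the inactivation of G proteins, had 6.23, 5.75, 6.13, 6.34 and 5.75 in tTA mice and 7.04, 7.94, 7.21, 5.93, 6.11 and 7.74 in DN mice 1 to 6, which sets the same 4 DN arrays above all tTA arrays. Its difference without DN mice 4 and 5 was −1.44 ± 0.22 (adjusted p = 0.0346, 14 arrays). Rgs4 was called in only 3 of the 14 fits that left out 1 array. Btg1, an inhibitor of proliferation, varied least among tTA mice of the 13 called probe sets (5.78, 5.89, 5.70, 5.75 and 5.83), against 7.30, 6.80, 7.80, 6.40, 6.77 and 7.75 in DN mice 1 to 6. Here no DN array, mice 4 and 5 included, overlapped the tTA arrays, and the difference was −1.63 ± 0.20 (adjusted p = 0.00604, 14 arrays) or −1.35 ± 0.31 over all DN arrays (adjusted p = 0.792).

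Dsg2, Ncam2 and Ntng1 encode adhesion proteins. Dsg2, a cadherin of desmosomes, had 2.10, 1.67, 2.01, 1.97 and 1.99 in tTA mice and 2.83, 3.09, 3.58, 2.61, 3.47 and 3.46 in DN mice 1 to 6 (1449741_at). The groups did not overlap over all 11 arrays, and 3 of the 13 called probe sets shared this (Dsg2, Btg1 and Ncam2), while 59 of all probe sets (0.261%) did so in this direction. The 13 were chosen by this same difference, and in all 13 the tTA arrays lay apart from the 4 DN arrays. These 2 shares are therefore a description and cannot be compared. Without DN mice 4 and 5 the difference of Dsg2 was −1.29 ± 0.16 (adjusted p = 0.00604, 14 arrays). Over all DN arrays it was −1.22 and was not called with 17 arrays. Of the 6 probe sets of Dsg2, 5 had a lower mean in tTA mice over all arrays. Ncam2, a neural cell adhesion molecule, had 8.39, 7.94, 7.95, 7.91 and 7.88 in tTA mice against 9.24, 9.04, 9.18, 8.44, 9.01 and 8.91 in DN mice 1 to 6. Its difference without DN mice 4 and 5 was −1.08 ± 0.15 (adjusted p = 0.0217, 14 arrays). Ncam2 is one of the few lower genes that is bright in both groups, and the tTA array nearest to the DN range was that of mouse 1. Ntng1, which encodes netrin-G1, a guidance protein of axons, averaged 3.48 ± 0.60 in tTA and 5.67 ± 0.32 in DN mice (SD, n = 5 and 4), a difference of −2.19 ± 0.49 that did not pass (adjusted p = 0.14 in the 14-array fit). Of the remaining lower genes, Gss, the glutathione synthetase, had 2.93, 2.54, 2.65, 1.74 and 2.10 in tTA mice and 4.13, 3.76, 4.99, 2.60, 3.99 and 4.37 in DN mice 1 to 6, with only DN mouse 4 among the tTA arrays. Its difference without DN mice 4 and 5 was −1.92 ± 0.28 (adjusted p = 0.0217, 14 arrays). Of the 14 fits without 1 array, Ncam2 was called in 7, Gss in 8 and Ptgs2 in 10.

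**Figure D1:**
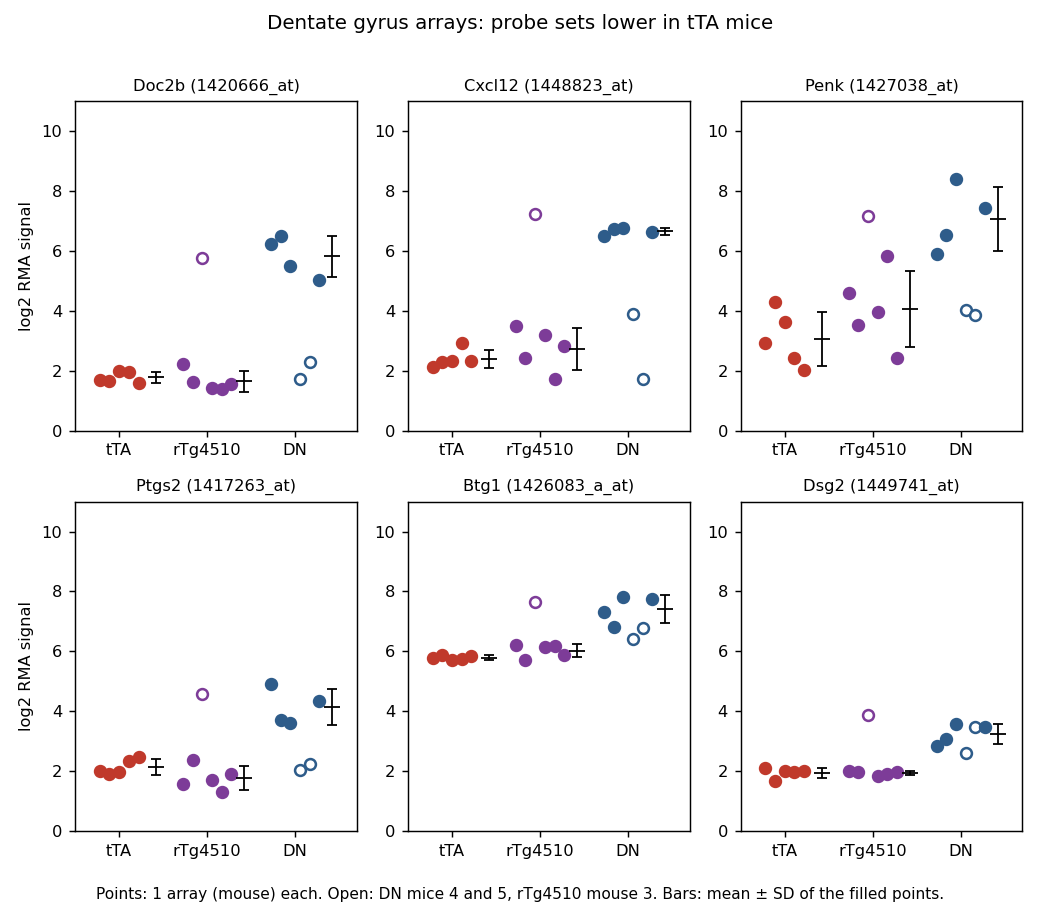
Log2 RMA signal (y axis) of 6 probe sets lower in tTA mice, 1 point per DG array, for tTA, rTg4510 and DN mice from left to right. Open points are DN mice 4 and 5 and rTg4510 mouse 3, and bars are the mean ± SD of the filled points. For Doc2b and Cxcl12 the filled DN points lie at 5.01 or above and the filled points of tTA and rTg4510 mice at 3.50 or below, while the open points lie on the other side of their group.

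The 4 genes called higher are a surface enzyme, a protease, a transcription factor and a calcium sensor. Car4, a carbonic anhydrase anchored on the cell surface, had 8.26, 7.40, 7.50, 8.37 and 8.35 in tTA mice (1418094_s_at), against 5.41, 4.57, 5.28, 7.57, 6.46 and 5.46 in DN mice 1 to 6. All tTA arrays lay well above DN mice 1, 2, 3 and 6, and DN mouse 4 overlapped them. The difference without DN mice 4 and 5 was 2.80 ± 0.34, or 6.94-fold (adjusted p = 0.00604, 14 arrays), and with them 2.18 ± 0.51 (adjusted p = 0.792). The other probe set of Car4 was higher by 2.02 in the 15-array fit, with groups of 9 arrays that did not overlap either, as at 256 of all probe sets (1.13%) in this direction. Car2, the cytosolic carbonic anhydrase of the list of 10 family members, was 6.60 ± 0.48 in tTA and 7.70 ± 0.78 in DN mice (SD, n = 5 and 4), and 5 of the 10 genes lay on each side of 0.

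Prss23, a secreted serine protease, had 4.26, 5.05, 4.89, 4.94 and 4.55 in tTA mice and 1.36, 1.58, 1.48, 3.63, 5.28 and 2.42 in DN mice 1 to 6 (1437671_x_at). The difference was 3.03 ± 0.47 without DN mice 4 and 5 (adjusted p = 0.0346, 14 arrays), its size being uncertain because those 4 DN signals lie under the array median, and 2.85 at its brighter probe set, where tTA and the 4 DN arrays did not overlap either. The other rTg4510 mice ranged from 2.81 to 5.39 here, so this gene was less uniform among tTA carriers than Doc2b or Cxcl12. Tbr1, a transcription factor of glutamatergic forebrain neurons, had 8.73, 8.92, 8.27, 8.56 and 8.01 in tTA mice and 7.42, 6.45, 6.43, 7.94, 8.63 and 7.06 in DN mice 1 to 6. Its difference without DN mice 4 and 5 was 1.66 ± 0.24, or 3.15-fold (adjusted p = 0.0229, 14 arrays). Hpcal1, a neuronal calcium sensor, had 8.46, 8.33, 8.27, 8.54 and 8.69 in tTA mice and 7.64, 7.17, 7.61, 8.19, 8.45 and 7.24 in DN mice 1 to 6. Its difference without DN mice 4 and 5 was 1.04 ± 0.15, or 2.06-fold (adjusted p = 0.0229, 14 arrays). In both Tbr1 and Hpcal1, DN mice 1, 2, 3 and 6 lay below all tTA arrays and DN mouse 5 lay within them. These calls were lost in some fits without 1 array, Prss23 being called in 4 of 14 (adjusted p up to 0.184), Tbr1 in 8 and Hpcal1 in 7.

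**Figure D2:**
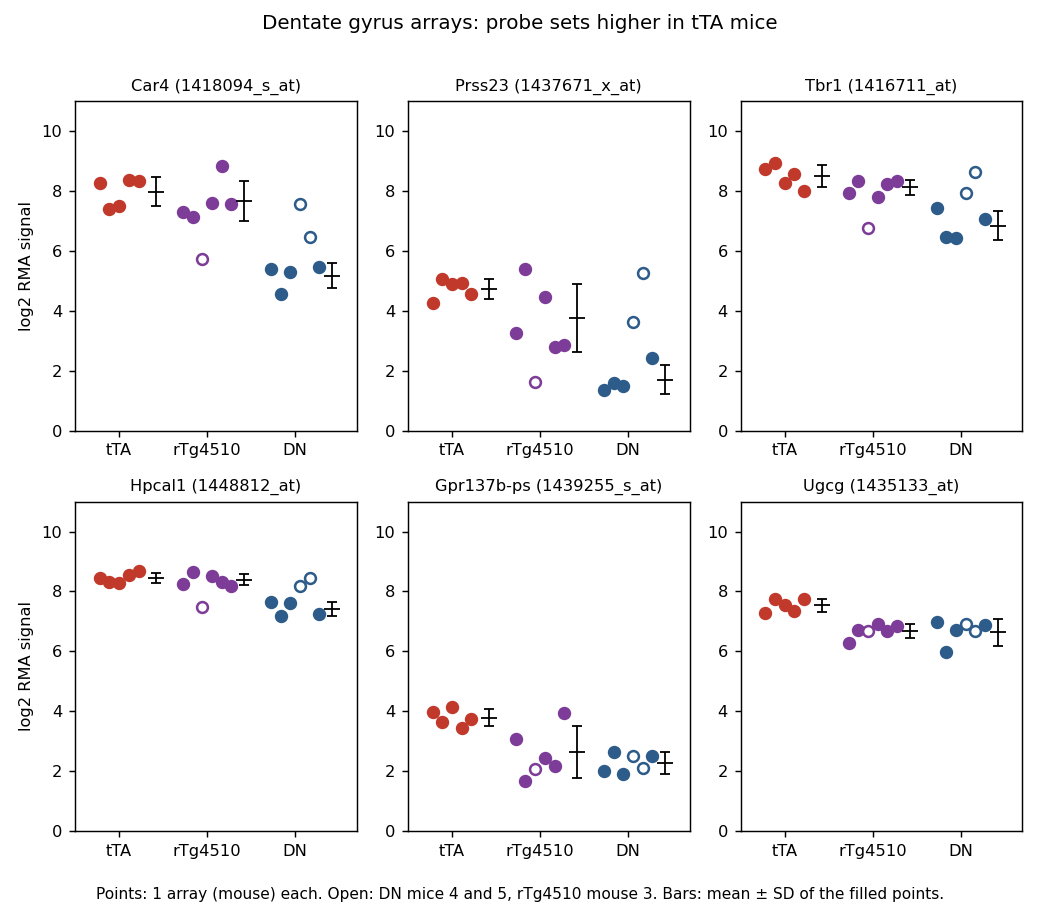
Log2 RMA signal (y axis) of 6 probe sets higher in tTA mice, drawn as for the lower ones, with tTA, rTg4510 and DN mice from left to right, open points for DN mice 4 and 5 and rTg4510 mouse 3, and bars for the mean ± SD of the filled points. Car4, Prss23, Tbr1 and Hpcal1 are high in most tTA and rTg4510 arrays, while Gpr137b-ps and Ugcg are highest in the tTA arrays, with most rTg4510 arrays near the DN level.

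The rTg4510 mice, which carry the same tTA transgene, were not used in the difference itself. Their arrays did enter the spread by which the 24 and the 13 probe sets below were chosen (without mouse 3 for the 13). That choice favours probe sets where the rTg4510 arrays fitted lie close together, so the places of these arrays are not an independent reading. For each of the 24 probe sets with the smallest p in the 15-array fit (12 in each direction), the midpoint between the mean of tTA and that of the 4 DN arrays was taken. The rTg4510 arrays of mice 1, 2, 4, 5 and 6 were on the tTA side in 20, 16, 15, 15 and 20 of the 24, and that of mouse 3 in 3. DN mice 4 and 5 were on the tTA side in 17 and 16, whereas DN mice 1, 2, 3 and 6, which with the tTA mice (23 or 24) set the midpoints, were there in 0, 0, 0 and 2. Of the 13 called probe sets, 10 had all 5 of these rTg4510 mice on the tTA side (the exceptions were Rgs4, Prss23 and Gss), 12 had DN mouse 4 and 8 had DN mouse 5 there, and rTg4510 mouse 3 was there in 0. The 13 were called in a fit without these 3 arrays, which favours probe sets where rTg4510 mouse 3 stands apart, so its place is a description only. For none of these counts is the share over all probe sets given, so the counts are descriptions too. They do not show that the rTg4510 mice or DN mice 4 and 5 follow the tTA mice. What set the 3 arrays apart was not tested.

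**Figure D3:**
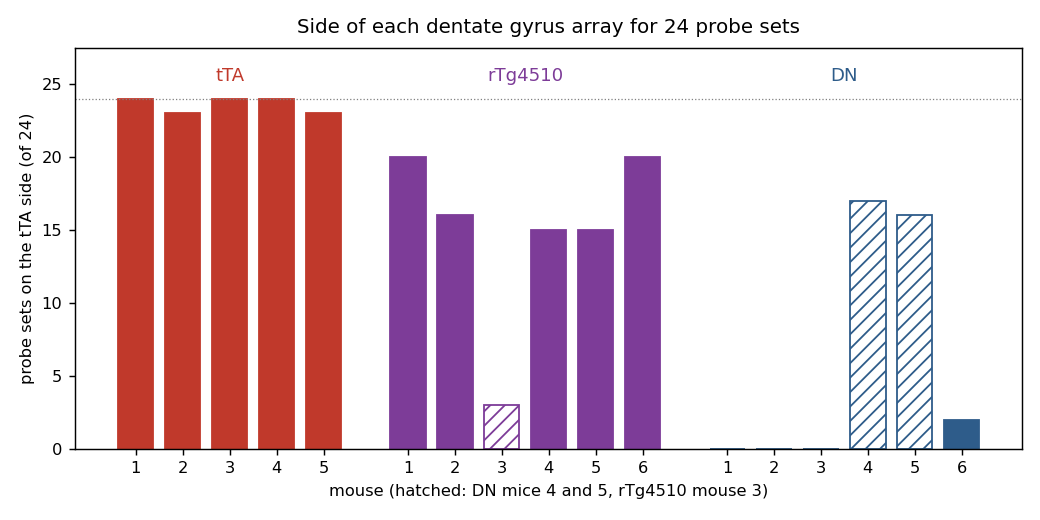
Number of 24 probe sets (y axis) for which each DG array lies on the tTA side of the midpoint between tTA mice and DN mice 1, 2, 3 and 6, for tTA, rTg4510 and DN mice from left to right, with the mouse number on the x axis. Hatched bars are rTg4510 mouse 3 (3 of 24) and DN mice 4 and 5 (17 and 16), and the dotted line is at 24. The share over all probe sets is not given, so the bars are a description.

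With every array kept, the leading genes were partly others. Gpr137b-ps had the smallest p among those higher in tTA mice, with 3.964, 3.649, 4.149, 3.437 and 3.752 in tTA mice and 2, 2.647, 1.913, 2.516, 2.097 and 2.5 in DN mice (1439255_s_at, difference 1.51 ± 0.31, adjusted p = 0.792). Of its 6 probe sets, 4 had overlapping groups. Ugcg, the glucosylceramide synthase that starts glycosphingolipid synthesis, had 7.28, 7.76, 7.54, 7.35 and 7.74 in tTA mice and 6.98, 5.96, 6.72, 6.92, 6.69 and 6.88 in DN mice (difference 0.84 ± 0.18), while its other two probe sets overlapped. At the probe sets given, neither gene overlapped between the groups, as 61 of all probe sets (0.27%) did in this direction, and in neither did most rTg4510 mice follow the tTA mice, with means over 5 mice of 2.65 and 6.69. Ctsb, the lysosomal protease cathepsin B, was 9.41 to 9.58 in tTA and 8.66 to 9.05 in DN mice (difference 0.62 ± 0.14), though its 3 other probe sets overlapped. Adam15, Prdx4 (a peroxiredoxin of the secretory pathway), Igfbpl1 and Ndufa11 (a subunit of complex I) were also above every DN array in all tTA arrays, with differences of 1.17, 1.05, 0.50 and 0.87. Their adjusted p were all 0.792, so none of these was called.

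Among the genes lower in tTA mice over all arrays, Pacsin2, which bends membranes in endocytosis, had the smallest p of the 17-array fit (difference −1.22 ± 0.21, limma adjusted p = 0.648). Its signals were 6.46, 7.57, 6.39, 6.70 and 6.79 in tTA mice and 8.36, 7.71, 8.09, 7.95, 7.52 and 8.34 in DN mice, and the array of tTA mouse 2 alone reached the DN range. Without that array it was the 1 probe set called with all other arrays (adjusted p = 0.0269). Safb2, Cbfa2t3 (a transcriptional corepressor of blood and neural cells) and Egln1, the oxygen-sensing prolyl hydroxylase of hypoxia-inducible factor, were lower in every tTA array than in any DN array, by 1.69, 1.74 and 0.96, but did not pass (adjusted p = 0.792 each). The other two probe sets of Safb2 had overlapping groups. Sall2, a zinc finger transcription factor, was 6.82 ± 0.28 in tTA and 7.91 ± 0.25 in DN mice without mice 4 and 5 (SD, n = 5 and 4; difference −1.08, adjusted p = 0.0863, 14 arrays).

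Gene lists for cell types and pathways were read by counts and medians of the 15-array fit, beside the 53.8% of 11807 genes that were higher and the 0.02 median over all of them. In no list did a gene pass in the 17- or 15-array fit. At an unadjusted p under 0.05, 2.35% of all genes were higher and 2.54% lower. Markers of microglia were higher in 19 of 21 genes, with a median of 0.36 and 5 at an unadjusted p under 0.05. Ctss (cathepsin S) was 7.32 ± 0.56 in tTA and 5.95 ± 0.71 in DN mice, Aif1 was 4.11 ± 0.73 in tTA and 3.18 ± 0.25 in DN mice, and Ly86 was 3.17 ± 1.37 in tTA and 1.88 ± 0.10 in DN mice (SD, n = 5 and 4, as in all list values below). Yet defining microglial genes such as Trem2 (2.21 ± 0.21 in tTA, 1.73 ± 0.08 in DN mice) lay under the array median in both groups, and the list's mean signal, centred per gene, overlapped between the groups (−0.16 to 0.55 in tTA arrays, −0.58 to 0.25 in all DN arrays and −0.58 to −0.10 without DN mice 4 and 5). In bulk tissue, more cells of a type and more RNA per cell cannot be told apart.

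Astrocyte markers were higher in 12 of 16 genes (median 0.26). Sox9 was 5.100 ± 0.60 in tTA and 3.997 ± 0.75 in DN mice and Clu 9.86 ± 0.23 in tTA and 9.26 ± 0.29 in DN mice. The list's centred mean ran from −0.15 to 0.14 in tTA and from −1.11 to 0.66 in DN arrays, so the DN arrays spread on both sides. Markers of inhibitory interneurons were higher in 13 of 17 genes (median 0.57; 10 genes and 0.37 in the 17-array fit), with Cck at 7.73 ± 0.36 in tTA and 6.66 ± 0.51 in DN mice, Npy at 5.90 ± 0.50 in tTA and 5.11 ± 0.66 in DN mice, and Gad1, which makes GABA, at 7.96 ± 0.12 in tTA and 7.27 ± 0.60 in DN mice. The list's centred mean was −0.29 to 0.30 in tTA arrays and −0.65 to −0.07 in DN mice 1, 2, 3 and 6, with 0.28 in DN mouse 4 and 0.56 in DN mouse 5. Oligodendrocyte genes were lower in 12 of 15 (median −0.40), with tTA arrays from −0.69 to −0.04 and DN arrays from −0.64 to 1.10 in the centred mean.

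Of 7 measured granule cell markers, 6 were lower in tTA mice (median −0.45). The list's centred mean overlapped between the groups, from −0.66 to 0.35 in tTA arrays and from −0.12 to 0.54 in DN mice 1, 2, 3 and 6. Only tTA mouse 3 (−0.66) lay below those DN arrays. The channel Trpc6 was 3.75 ± 0.58 in tTA and 5.56 ± 0.41 in DN mice, C1ql3, a secreted synaptic organiser, was 8.10 ± 0.34 in tTA and 9.08 ± 0.40 in DN mice, and Prox1 was 6.21 ± 0.60 in tTA and 6.66 ± 0.53 in DN mice. Tdo2, which degrades tryptophan, went the other way, with 5.41, 3.83, 3.03, 7.30 and 6.11 in tTA mice and 2.38, 2.36, 2.58, 3.45, 3.39 and 2.31 in DN mice 1 to 6 (difference 2.73 ± 0.73 without DN mice 4 and 5, adjusted p = 0.767). It varied more among tTA mice than any other gene named here, and tTA mouse 3 overlapped DN mice 4 and 5. The neuropeptide list was lower in 9 of 14 genes (median −0.49), led by Penk, while Cck and Npy were higher, so its members differed in direction. Its centred mean lay between −0.27 and −0.01 in tTA arrays and between 0.06 and 0.55 in the 4 DN arrays, with −0.53 in DN mouse 4 and −0.05 in DN mouse 5.

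Genes induced by activity were lower in 20 of 29, but with a median of only −0.10, and Per1 (3.22 ± 1.26 in tTA, 5.18 ± 0.83 in DN mice), a gene of both activity and the clock, had the smallest p. The clock list was lower in 13 of 16 genes (median −0.39), 3 of them at an unadjusted p under 0.05. Among receptors, glutamate receptor genes were lower in 9 of 11 (median −0.29) and GABA receptor genes in 6 of 8 (median −0.15), with Gabra2 at 6.56 ± 0.21 in tTA and 7.14 ± 0.27 in DN mice. Presynaptic genes were lower in 17 of 27 with a median of −0.08, so Doc2b stood far outside its list. Genes of apoptosis were lower in 13 of 20 (median −0.27), among them the inhibitor Bcl2 (3.40 ± 1.17 in tTA, 4.98 ± 1.79 in DN mice) and the activator Bcl2l11 (4.18 ± 1.11 in tTA, 5.68 ± 0.57 in DN mice). Of the housekeeping lists, 45 of 78 genes of oxidative phosphorylation were higher (median 0.04). Of 67 ribosomal protein genes, 24 were higher in the 15-array fit (median −0.10) and 36 in the 17-array fit (median 0.02), so this list's direction turned with DN mice 4 and 5.

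**Figure D4:**
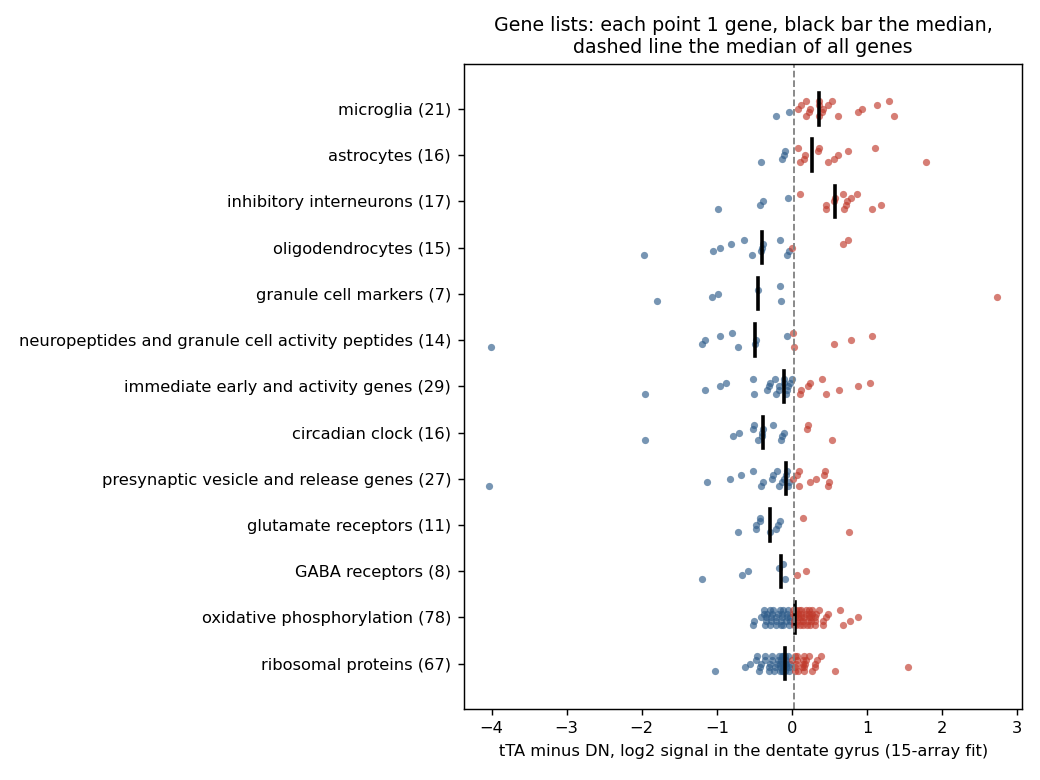
Difference of tTA minus DN mice in log2 signal in the 15-array fit (x axis) for the genes of 13 lists, 1 point per gene with red for higher and blue for lower in tTA mice, and the number of genes in brackets. Black bars are list medians, from −0.49 in neuropeptides to 0.57 in interneuron markers, and the dashed line is the median of all genes, 0.02.

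The same comparison called no probe set in CA1 or CA3 with all 17 mice (0% in both, with 4.59% and 6.13% at an unadjusted p under 0.05), nor without the 2 or 3 mice. Values are set side by side here because the DG, CA1 and CA3 arrays are labelled as coming from the same mice. For DN mouse 5 this is in doubt, since Xist was high in its DG array and low in its CA1 and CA3 arrays. For Cxcl12 (1448823_at) the difference without DN mice 4 and 5 was −0.49 in CA1 and 0.13 in CA3, where signals were low in both groups (1.55 to 2.18 in tTA and 1.82 to 3.40 in DN mice in CA1). The within-mouse difference between subfields changed with genotype by −3.75 ± 0.40 for the DG against CA1 (adjusted p = 0.00597) and by −4.38 ± 0.32 for the DG against CA3 (adjusted p = 3.39e-05), both without the 3 mice. Cxcl12 was the 1 probe set called against CA1 (0.00442%), and 4 were called against CA3 (0.0177%). With 17 or 15 mice, 0 were called in either, and 985 (4.35%) against CA1 and 1150 (5.08%) against CA3 had an unadjusted p under 0.05 with 17. Each of these fits keeps at least 1 mouse whose DG array went against its label, and the pairing of such a mouse is in doubt.

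Doc2b (1420666_at) was called against CA3 as well, by −3.89 ± 0.29 (adjusted p = 3.39e-05). In CA3 both groups were low (difference −0.14). In CA1 its difference was −1.58, with 1.38, 1.81, 3.16, 2.21 and 3.03 in tTA mice and 1.93, 1.84, 5.40, 4.63, 1.92 and 6.40 in DN mice 1 to 6. The CA1 arrays of DN mice 3 and 6, the highest here, also had the highest signals of the granule cell gene C1ql3 in CA1 (7.19 and 7.15, against 2.36 to 4.19 in tTA mice), and its part in the Doc2b values was not tested. Prss23 differed from CA3 by 3.22 ± 0.44 (adjusted p = 0.0325), where it was low in both groups, but was higher in tTA mice in CA1 by 2.73. At its brighter probe set CA1 had 7.61 ± 0.35 in tTA and 4.45 ± 1.31 in DN mice (SD, n = 5 and 4). That difference is larger than the one at the same probe set in the DG. The last probe set called against CA3 was one of Nfkbie, an inhibitor of NF-κB, with 1.70 ± 0.24 (adjusted p = 0.0325), although in the DG itself it differed by only −0.21.

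Of the higher genes, Car4 differed by 2.36 in CA1 and 0.97 in CA3. In CA1 it was 7.78, 8.08, 7.67, 6.72 and 8.40 in tTA mice, against 4.96, 5.82, 5.02, 7.16, 5.01 and 5.70 in DN mice 1 to 6, so that DN mouse 4 again stood with the tTA mice while DN mouse 5, whose CA1 Prnp was 8.12, stood with the other DN mice. Tbr1 differed by 1.39 in CA1 and −0.14 in CA3. Among the lower genes, Rgs4 differed by −0.94 in CA1 and −1.01 in CA3 at the probe set called in the DG. At its other probe sets the CA3 means were closer, 6.37 and 3.01 in tTA mice against 6.62 and 3.38 in DN mice. In CA1 those means were 6.40 and 3.59 in tTA mice against 7.49 and 4.22 in DN mice. Ptgs2 differed by −1.63 in CA3 and 0.06 in CA1 at its called probe set but by −0.10 in CA3 and −0.51 in CA1 at its brighter one, and Penk by −0.89 in CA1 with 0.53 in CA3. None of these was called in CA1 or CA3, and apart from the 4 genes named above no difference between subfields passed its test.

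**Figure D5:**
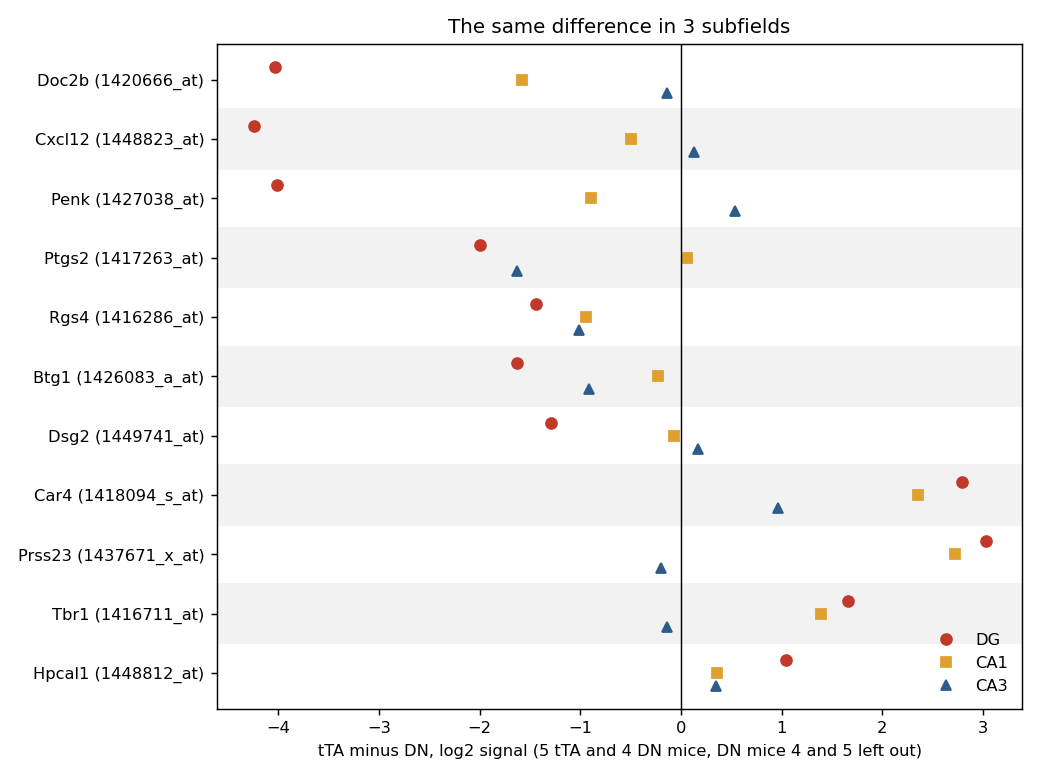
Difference of tTA minus DN mice in log2 signal (x axis), without DN mice 4 and 5, for 11 probe sets in the DG, CA1 and CA3. Circles (DG) lie farthest from 0 for each probe set drawn, from −4.25 for Cxcl12 to 3.03 for Prss23, while squares (CA1) approach them for Car4, Prss23 and Tbr1. At the brighter probe set of Prss23, which is not drawn, the difference was larger in CA1 than in the DG.

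Genes beside the transgenes gave no call. At the site where the tTA transgene of this line is known to lie, 3 of 8 listed genes were measured, Ncapg2, Vipr2 and Ptprn2, with differences of −0.30, −0.27 and −0.27 in the 15-array fit (adjusted p = 0.976 to 0.978) and signals near or under the array median in both groups. That of Vipr2 rested on DN mouse 2 (3.29), and without it the tTA mean was 1.64 and the DN mean 1.45, which turns the sign. Fgf14, at the site of the tau transgene, which neither tTA nor DN mice carry, differed by −0.07 at its brighter probe set (8.07 ± 0.22 in tTA and 8.14 ± 0.21 in DN mice, SD, n = 5 and 4; 0.01 over all arrays) and by −0.81 at the other, with overlapping groups. Camk2a, whose promoter drives tTA, was 10.32 ± 0.29 in tTA and 10.48 ± 0.07 in DN mice. The probe sets of the mouse tau gene Mapt differed by −0.72, 0.11 and 0.17 with no call.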

How the data were processed

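RNA of laser-captured cell layers was hybridised to Affymetrix HT-MG-430A arrays after amplification (Ovation Pico WTA) and biotin labelling (Encore). The authors deposited RMA signals, which are background-corrected, normalized between arrays and summarized per probe set. The methods speak of anti-log values, but the range of the deposited values is that of log2 signals, and no further log was taken. The version of RMA is not given in the sources used here. The number of arrays limits the precision.

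Of 22716 probe sets, 90 controls were left out. The platform's table names 1 gene for 18003 of the 22626 tested, several for 287 and none for 4336, and the study's supplementary tables name 314 of these. Genotypes were fitted together with limma 3.58.1 (R 4.3.3) and adjusted by Benjamini-Hochberg over all probe sets at 0.05. Subfields were compared on within-mouse differences, with arrays paired by the mouse in their titles. The fits were tested on simulated data. Exact permutation tests used all 462 splits of 11 mice. For lists, the brightest probe set of a gene was used, and the centred mean averages the list's genes after each was set to a mean of 0 over the DG arrays.

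The members of the comparison, the lists and the fits were chosen with earlier results of these data known. Genes named are the 12 of smallest p in each direction of the 17- and 15-array fits, those called with 14 or 9 arrays, up to 4 list members of smallest p, layer markers and transgene loci. Other genes (C1ql3 in CA1, Nfkbie) and the second probe sets were chosen after their values were seen. Mice of a genotype were numbered in accession order. Alternatives tried were array weights, a trend of variance with intensity, Fisher's LSD (log2 or linear values), leaving out probe sets below percentile 40 of mean signal, quantile normalization, median centring, other sets of arrays, a random block for the mouse and leaving out each mouse. The fits of CA1, CA3, the within-mouse differences and the lists without the 3 mice were chosen after seeing the data. Python 3.11.15 and matplotlib 3.10.9 drew the figures.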

Additional observations from a re-analysis of the deposited data

Results flagged for a closer look

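The signals of 44 named probe sets were examined in the DG arrays of each genotype for 1 array set apart from the rest by Dixon's ratio at its critical value. In 19 of 132 groups 1 array stood apart. Chance alone sets one apart in about 1 of 20 groups, but the named probe sets include those called only without rTg4510 mouse 3, a choice that favours probe sets where this array stands apart, so the counts are a description. Of the 19, 10 were the array of rTg4510 mouse 3, 1 was that of DN mouse 4 and 0 were that of DN mouse 5. Dixon's ratio looks for 1 array apart, so a pair of like arrays such as DN mice 4 and 5 can go unseen by it.

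The array of rTg4510 mouse 3 had 1.52 for Prdx4 (nearest other rTg4510 array 2.14), 6.75 for Tbr1 (7.79), 4.59 for Ptgs2 (2.37), 5.77 and 5.36 for the 2 probe sets of Doc2b (2.23 and 1.99), 6.22 for Tle1 (5.01), 7.64 for Btg1 (6.23), 5.45 for Gss (3.55), 7.24 for Cxcl12 (3.50) and 3.89 for Dsg2 (2.002). Among tTA arrays, Tle1 was 5.02 in mouse 3 (nearest 3.80), Ncam2 8.39 in mouse 1 (7.95) and Cxcl12 2.93 in mouse 4 (2.34). Among DN arrays, Rbp4 was 1.46 in mouse 4 (nearest 3.19), Prdx4 1.94 in mouse 6 (2.28), Mocs1 1.32 in mouse 1 (1.84), Hnrnpll 6.24 in mouse 3 (5.83), Ugcg 5.96 in mouse 2 (6.69) and Safb2 6.53 in mouse 3 (5.31).

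Without DN mice 4 and 5 and rTg4510 mouse 3, the difference between tTA and DN mice differed between subfields at 4 genes in limma. For the DG against CA1 this was Cxcl12 (−3.75, adjusted p = 0.00597), and for the DG against CA3 it was Cxcl12 (−4.38, adjusted p = 3.39e-05), Doc2b (−3.89, adjusted p = 3.39e-05), Prss23 (3.22, adjusted p = 0.0325) and Nfkbie (1.70, adjusted p = 0.0325). What set these arrays and genes apart was not tested.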

How the results depend on the processing

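The count of probe sets called between tTA and DN mice in the DG depended on which arrays were fitted. It was 0 with all 17 arrays, 3 when all 51 arrays were fitted with the mouse as a random block (Car4 higher by 2.18, adjusted p = 0.0369, Dsg2 with −1.22 and Krt77 with −1.71, both at 0.0131), and 13 without DN mice 4 and 5 and rTg4510 mouse 3. Leaving out 1 array of the 17 gave 0 to 1, with 1 without rTg4510 mouse 3 (Dsg2) and 1 without tTA mouse 2 (Pacsin2). Without DN mice 4 and 5 the count was 0, and it was 5 with only tTA and DN arrays, 13 without rTg4510 mouse 3 as well, and 0 to 13 when 1 further array was left out (1 without tTA mouse 2, again Pacsin2). The 13 became 14 with an intensity trend (12 shared), 21 with array weights (13 shared) and 8 with Fisher's LSD (8 shared). Without the 3 mice the count was 1 between the DG and CA1, 4 between the DG and CA3 and 2 among genes of the lists (Doc2b and Tbr1), and each was 0 with all mice and when single mice were left out. No called difference of a named gene changed sign, and the other settings gave 0 calls. With all 17 arrays in place of 15, the median of ribosomal protein genes was 0.02 in place of −0.10, that of CA1 pyramidal markers 0.14 in place of −0.003, and the difference of Fgf14 0.01 in place of −0.07. Scaling moved the median of all probe sets by little (0.0173 as deposited, 0.0378 with median centring, 0.00603 with quantile normalization). No paired analysis was possible because tTA and DN mice are different animals numbered in accession order. Signals near or below the array median bound what can be said of the lower genes.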
